A study of Rattus norvegicus with 48 samples.

Results

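The question addressed here is what repeated restraint in adolescence left in the adult motor cortex of rats from the vinclozolin lineage. The comparison sets 3 arrays of stressed vinclozolin-lineage rats (St-Vin) against 2 arrays of non-stressed vinclozolin-lineage rats (NSt-Vin), 5 of the 48 arrays of the series, chosen by the labelled area, lineage and stress group. The animals were Sprague-Dawley males, great-grandsons (F3) of the females treated, killed as adults at 120 days of age. In the vinclozolin lineage (Vin) the pregnant F0 females had received intraperitoneal vinclozolin at 100 mg/kg/day on embryonic days 8 to 14. In the control lineage (Con) they had received the vehicle, DMSO. St-Vin and St-Con rats were restrained for 6 hours a day on 21 consecutive days (postnatal days 23 to 43), whereas NSt-Vin and NSt-Con rats were not. Each rat lived throughout with a cage mate of the other lineage and the same stress group, so the NSt-Vin rats, like the St-Vin rats, shared a cage with a control-lineage rat. Each array held a pool of 4 animals, taken as 2 mm punches labelled primary and secondary motor cortex. A pool averages its animals, so the spread between arrays is a spread between pools.

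The motor cortex plans and commands voluntary movement through its deep-layer projection neurons, which are held in check by local GABA neurons. Restraint activates the hypothalamic-pituitary-adrenal axis, and the glucocorticoids it releases act on cortical cells through the glucocorticoid receptor (Nr3c1) and the mineralocorticoid receptor (Nr3c2). Vinclozolin is a fungicide whose breakdown products block the androgen receptor. Exposure of a pregnant rat while the gonads of her embryos form is used as a model of effects carried over generations, and the F3 generation is the first in which no germ cell was itself exposed. The tissue here was taken long after the last restraint session, so the arrays show what persisted and not the acute response.

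The arrays gave log2 signals for 27342 probe sets. The group NSt-Vin has 2 arrays because the array labelled NSt-Vin 2 equals the mean of NSt-Vin 1 and NSt-Vin 3 within rounding (largest deviation 0.005) and adds no measurement. Array medians lay between 6.76 and 6.80, and the lowest correlation between any 2 of the 5 arrays was 0.993. Precision is set by the number of arrays, which have no depth of reading. Fezf2, which specifies deep-layer projection neurons, read 8.73, 8.79 and 8.14 in St-Vin and 8.84 and 8.52 in NSt-Vin, but it was as high in CA3 arrays (8.09 to 8.75) and does not set the punches apart from hippocampus. Drd2, a receptor of striatal neurons, read between 5.27 and 5.73 in the motor cortex arrays and had a median of 7.72 in amygdala arrays. Prox1, a marker of the dentate gyrus, reached at most 5.91 in motor cortex, against at least 8.21 in CA3. St-Vin arrays and NSt-Vin 3 were scanned on day 2, and NSt-Vin 1 on day 1. The labels give a single RNA preparation day for the motor cortex samples. St-Con arrays were all scanned on day 2 and NSt-Con arrays all on day 1, so scan day and stress cannot be told apart in the control lineage.

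No probe set passed the test for a stress difference in the vinclozolin lineage. In limma's fit, with the spread taken from the 11 motor cortex arrays, 0 of 27342 probe sets (0%) had an adjusted p under 0.05, and the smallest adjusted p was 0.983. At an unadjusted p under 0.05 in that fit, 384 probe sets were higher in St-Vin (1.4%) and 472 were lower (1.73%). These 856 in all (3.13%) are fewer than a threshold of 0.05 passes on average where nothing differs. All 3 St-Vin arrays lay above both NSt-Vin arrays for 1582 probe sets (5.79%) and below both for 2032 (7.43%). The differences were small: 95% of probe sets had a log2 difference between -0.17 and 0.17, and 198 exceeded 0.3 in either direction. The median standard error was 0.077 and the median 95% interval reached 0.167 to either side of the estimate, or 1.12-fold.

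**Figure D1:**
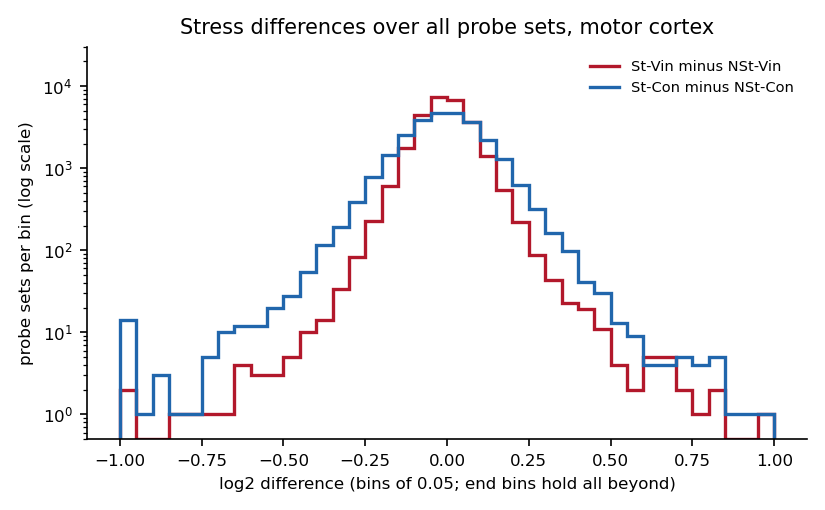
Number of probe sets (vertical axis, log scale) by log2 difference (horizontal axis, bins of 0.05) for St-Vin minus NSt-Vin and St-Con minus NSt-Con in motor cortex. The Vin curve is the narrower, with 198 probe sets beyond 0.3 in either direction against 847 in Con.

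The genes named next had the smallest p-values among probe sets with 1 symbol. They are not the widest separations of all. By p-value the first probe set with 1 symbol ranked 13, and those before it included a difference of 1.08. These 24 genes, 12 higher and 12 lower in St-Vin, were taken by their p-value, so their separation is a consequence of that choice. All had an adjusted p of 0.998 in limma's test, and their log2 differences lay between 0.19 and 0.55 in size. The 12 higher genes were Abca8a, Tmem156, Txnip, the olfactory receptor genes Or2ak4e and Or10al7, Cox20, Btn3a2, Acot1, Gpx8, Cnot3, Ccn2 and Ccndbp1. The 12 lower genes were Mettl27, the olfactory receptor genes Or4k77 and Or10ak14, Cyp2b15, Bbln, Igfbp6, Ankrd34c, Lgi2, Chchd2l3, Cds1, Gnpda2 and Psmg4. Olfactory receptors belong to a large family of similar genes, and a probe set of one may read another.

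Abca8a, a lipid transporter of the ABC family, read 8.29, 8.17 and 8.10 in St-Vin and 7.90 and 7.87 in NSt-Vin. Its log2 difference was 0.30 ± 0.07 (SE), with a 95% interval of 0.15 to 0.45. The groups did not overlap, while in the control lineage the difference was -0.12. Txnip, which binds and restrains thioredoxin and limits glucose uptake, read 9.24, 8.89 and 8.99 in St-Vin and 8.49 and 8.68 in NSt-Vin. The Txnip difference of 0.46 ± 0.12 was the largest among the 12 higher genes, and leaving out 1 array at a time kept it between 0.35 and 0.55. In the control lineage Txnip differed by -0.04, and the St-Vin arrays stood above all 8 other arrays. Ccn2, a secreted matrix protein that marks layer 6b neurons in rodent cortex, read 7.86, 7.47 and 7.49 in St-Vin and 7.27 and 7.23 in NSt-Vin. The first St-Vin array carried much of the Ccn2 difference of 0.36 ± 0.11, which was 0.23 without it.

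Igfbp6, a secreted binding protein with a preference for insulin-like growth factor 2, had the largest difference of the 24. It read 7.72, 7.30 and 7.14 in St-Vin and 7.98 and 7.90 in NSt-Vin, a log2 difference of -0.55 ± 0.14 with a 95% interval of -0.86 to -0.24. The control lineage gave -0.66 for Igfbp6, which passed there (limma adjusted p = 0.046). Mettl27, a methyltransferase-like gene, read 6.32, 6.37 and 6.27 in St-Vin and 6.57 and 6.58 in NSt-Vin, a difference of -0.26 ± 0.06. It too was among the genes that passed in the control lineage, at -0.39 (adjusted p = 0.022). Psmg4, a chaperone of proteasome assembly, differed by -0.21 in Vin and by -0.29 in Con (adjusted p = 0.043 in Con), and Tmem156 by 0.26 in Vin and 0.32 in Con (adjusted p = 0.041 in Con). These were the 4 of the 24 that passed in the control lineage, where 0.636% of all probe sets passed. In both lineages 17 of the 24 had the same direction, as did 57.8% of all probe sets. The tests of both lineages use the same estimate of the spread. Choosing the 24 by p-value in Vin therefore favours small p-values in Con.

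Among the remaining members of the 24, Cox20, an assembly factor of cytochrome c oxidase, read 8.88, 8.71 and 8.73 in St-Vin and 8.51 and 8.55 in NSt-Vin. Acot1, an acyl-CoA thioesterase, differed by 0.27, and Gpx8, a peroxidase of the endoplasmic reticulum, by 0.24. Cnot3, a subunit of the CCR4-NOT deadenylase complex, had the smallest difference of the 24 at 0.19. Cds1, which makes CDP-diacylglycerol for phosphoinositide synthesis, read 9.67, 9.75 and 9.60 in St-Vin and 9.96 and 9.85 in NSt-Vin. Lgi2, a secreted neuronal protein with leucine-rich repeats, differed by -0.27, and Gnpda2, an enzyme of amino sugar metabolism, by -0.24. Cyp2b15, a cytochrome P450, differed by -0.25, Ankrd34c by -0.27, Bbln by -0.25 and Chchd2l3 by -0.33. Btn3a2, of the butyrophilin family, and Ccndbp1, a cyclin D binding protein, differed by 0.34 and 0.26. Mean signals of the 24 ran from 4.73 to 9.78. Among those below the lowest array median of 6.76 were Btn3a2 (4.73), Acot1 (4.85), Or10al7 (5.02), Or4k77 (5.29), Tmem156 (5.34) and Cyp2b15 (5.92).

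**Figure D2:**
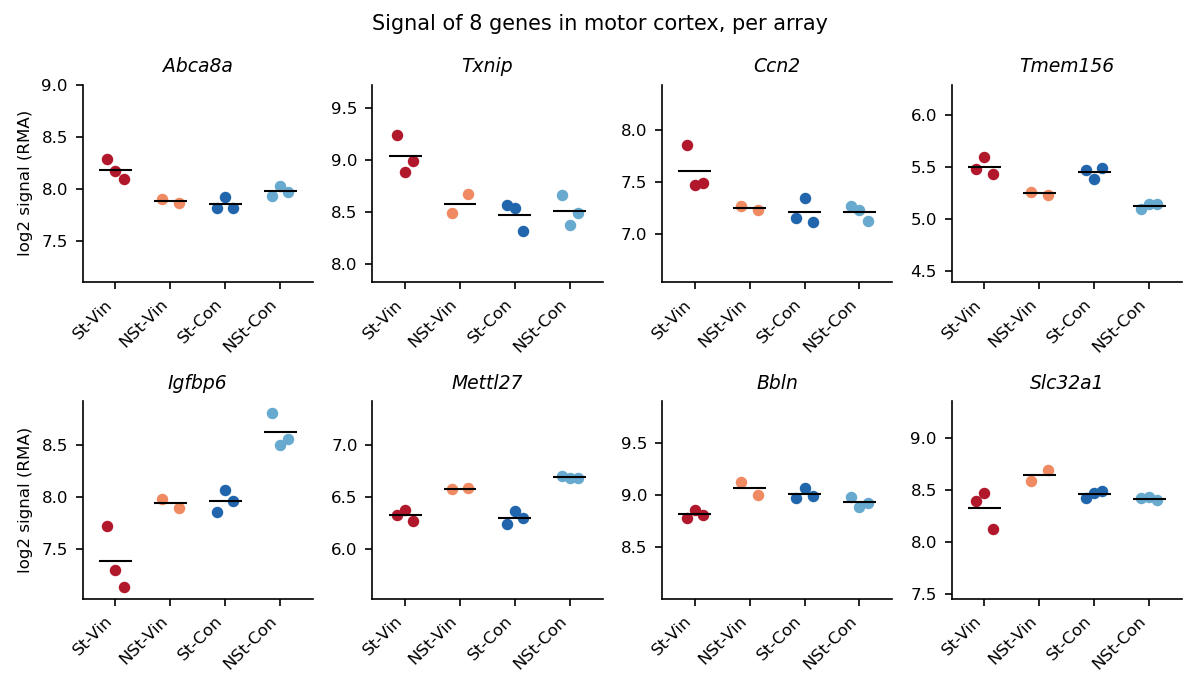
log2 signal per array (points) and group mean (line) for 8 genes in the St-Vin, NSt-Vin, St-Con and NSt-Con arrays of motor cortex, on axes of equal span. The St-Vin and NSt-Vin points do not overlap for any of the 8, and Igfbp6, Mettl27 and Tmem156 show a difference of the same direction in Con.

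Receptors and regulators of the stress axis had small differences, and none passed. Of 22 measured genes of the glucocorticoid receptors and their response genes, 0 passed, 9 had a positive and 13 a negative difference, and their median was -0.02, against -0.01 over all probe sets. Nr3c1 read 9.64, 9.52 and 9.53 in St-Vin and 9.53 and 9.48 in NSt-Vin, a difference of 0.06 with a 95% interval of -0.10 to 0.21. Fkbp5, a co-chaperone that dampens glucocorticoid receptor signalling and is induced by it, read 7.85, 7.95 and 7.73 in St-Vin and 7.86 and 7.78 in NSt-Vin. The Fkbp5 groups overlapped, and the difference of 0.02 had an interval of -0.20 to 0.25, whereas the control lineage gave 0.38 (adjusted p = 0.072). The test of the difference between lineages did not pass for Fkbp5 (interaction adjusted p = 0.841). Nr3c2 read 7.10, 7.22 and 7.06 in St-Vin and 7.28 and 7.30 in NSt-Vin, without overlap, a difference of -0.16 with an interval of -0.31 to -0.01 before adjustment. Tsc22d3, a glucocorticoid-induced leucine zipper gene, read 8.31, 8.27 and 8.31 in St-Vin and 8.39 and 8.42 in NSt-Vin, a difference of -0.11. Mt1, a metallothionein, differed by 0.15, and Sult1a1, a sulfotransferase, by 0.38, which was 0.175 without St-Vin 3.

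Nor did a ligand of the stress response, a steroid receptor or a DNA methyltransferase pass. Crh, the corticotropin-releasing hormone made in cortex by GABA neurons, read 6.65, 6.58 and 6.59 in St-Vin and 6.62 and 6.55 in NSt-Vin. Its interval ran from -0.12 to 0.17. Bdnf, a neurotrophin released by active neurons, differed by -0.05 with an interval of -0.20 to 0.10. Of 29 stress and social neuropeptides and receptors, 0 passed and the median was -0.03. Among them the kappa opioid receptor gene Oprk1 differed by -0.18, with -0.07 against NSt-Vin 1 alone and -0.30 against NSt-Vin 3 alone. Pnoc, the precursor of nociceptin, differed by 0.21, with 0.05 against NSt-Vin 1 alone and 0.38 against NSt-Vin 3 alone. For the androgen receptor, no probe set carried its symbol alone, so it is not reported. The estrogen receptor gene Esr1 had 2 probe sets, with differences of 0.12 and -0.03. Of 14 sex steroid receptors and enzymes of steroid metabolism, 0 passed and 0 separated the groups. Over all probe sets 13.2% separated in either direction, so 0 of 14 says little about these genes. The maintenance DNA methyltransferase gene Dnmt1 read 7.64, 7.60 and 7.69 in St-Vin and 7.67 and 7.56 in NSt-Vin. The de novo methyltransferase gene Dnmt3a read 6.60, 6.66 and 6.80 in St-Vin and 6.75 and 6.84 in NSt-Vin, and its interval of -0.30 to 0.08 held 0. Of 25 genes of DNA methylation and histone modification, 0 passed, with a median of 0.02.

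**Figure D3:**
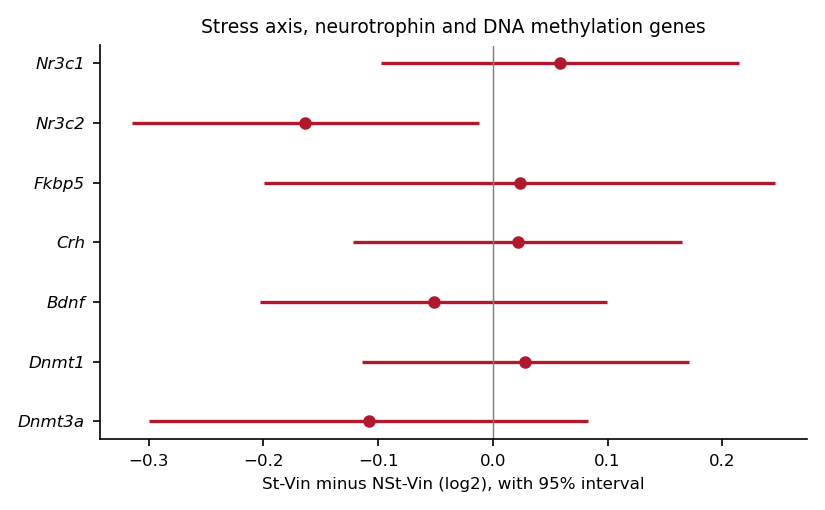
log2 difference St-Vin minus NSt-Vin (points) with its 95% interval (bars, not adjusted for multiple tests) for 7 genes. The interval includes 0 for all but Nr3c2, whose interval ends at -0.01 and which did not pass after adjustment.

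Energy and synaptic gene groups leaned to small negative differences, none of which passed. Over all probe sets, 14459 of 27342 had a negative difference. Among 78 measured genes of oxidative phosphorylation, which include assembly factors, 0 passed, 68 had a negative difference, and the median was -0.07. St-Vin arrays lay below both NSt-Vin arrays for 19 of the 78 (24.4%, against 7.43% of all probe sets) and above both for 0. Uqcrfs1, the iron-sulfur subunit of complex III, read 8.97, 8.94 and 8.78 in St-Vin and 9.16 and 9.09 in NSt-Vin. Atp5mc1, a subunit of the ATP synthase ring, read 9.20, 9.24 and 9.08 in St-Vin and 9.47 and 9.36 in NSt-Vin, and Ndufb2 and Ndufa1 of complex I differed by -0.20 and -0.22. As a list mean the groups still overlapped, with 9.56, 9.58 and 9.45 in St-Vin against 9.65 and 9.56 in NSt-Vin. The list median was -0.03 against NSt-Vin 3, the array of the same scan day, and -0.11 against NSt-Vin 1. It was -0.03 without St-Vin 3, and -0.01 in the control lineage. Genes of a complex share their regulation and the arrays, so their number adds no independent support.

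For GABA synthesis, transport and receptors, 0 of 18 genes passed, 14 had a negative difference and 7 separated the groups downward (38.9%, against 7.43% of all probe sets), with a median of -0.05. The GABA median was -0.10 against NSt-Vin 1 alone and -0.03 against NSt-Vin 3 alone. In the control lineage the GABA median was 0.045, with 11 of 18 genes positive. Slc32a1, the vesicular GABA transporter, read 8.39, 8.47 and 8.12 in St-Vin and 8.59 and 8.69 in NSt-Vin. Its difference of -0.31 ± 0.09 was -0.21 without St-Vin 3, against 0.04 in the control lineage (interaction adjusted p = 0.841). The GABA-producing enzymes showed the same order: Gad2 read 9.84, 9.73 and 9.54 in St-Vin and 9.95 and 9.88 in NSt-Vin. Without St-Vin 3 the Gad2 difference of -0.21 was -0.13. Gad1 differed by -0.19, which was -0.115 without St-Vin 3, and the extrasynaptic receptor subunit gene Gabrd by -0.15. Among 21 markers of cortical interneurons, Reln, the secreted glycoprotein of layer 1 and other GABA neurons, read 8.10, 8.28 and 8.25 in St-Vin and 8.56 and 8.46 in NSt-Vin. Pvalb, which marks fast-spiking interneurons, read 9.78, 9.94 and 9.78 in St-Vin and 10.00 and 10.04 in NSt-Vin. The interneuron list had 0 called and a median of -0.02. In bulk tissue, fewer cells of a type and less RNA per cell cannot be told apart. Reln differed by -0.30 in Vin and -0.26 in Con, and Pvalb by -0.19 in Vin and -0.02 in Con.

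Of 41 genes of voltage-gated potassium channels and their partners, 30 had a negative difference and 0 passed, with a median of -0.06. Kcna3 differed by -0.16 and Kcnip1, an accessory subunit, by -0.20, and against NSt-Vin 3 alone these were -0.093 and -0.107. Of 39 genes of synaptic vesicles and the postsynaptic density, 31 had a negative difference and 0 passed. The synaptic median was -0.04, and it was 0.01 against NSt-Vin 3 alone and -0.10 against NSt-Vin 1 alone. Syt2, the calcium sensor of fast-releasing synapses, read 8.52, 8.81 and 8.68 in St-Vin and 8.87 and 8.95 in NSt-Vin. Immediate early genes, which report recent neuronal activity, had a negative difference for 21 of 26 and 0 called. Nr4a1 read 9.19, 9.43 and 8.87 in St-Vin and 9.29 and 9.49 in NSt-Vin, and Arc 9.72, 10.10 and 9.64 in St-Vin and 9.89 and 10.16 in NSt-Vin. Both overlapped, whereas Dusp6, a phosphatase that limits ERK signalling, did not, at -0.21. For cholesterol synthesis, 17 of 18 genes had a negative difference with a median of -0.07, which became -0.15 against NSt-Vin 1 alone and 0.04 against NSt-Vin 3 alone. In the control lineage the median was 0.04 for potassium channels and 0.07 for synaptic genes, of which 31 were positive. There it was -0.09 for immediate early genes and -0.05 for cholesterol synthesis. Of 68 cytosolic ribosomal protein genes, 43 had a positive difference and 0 passed, with a median of 0.03. Their list means did not overlap, at 10.021, 10.025 and 10.03 in St-Vin and 10.013 and 9.993 in NSt-Vin, a difference of 0.02. In the control lineage the ribosomal list means separated in the same direction, with a median of 0.075 and 53 genes positive.

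**Figure D4:**
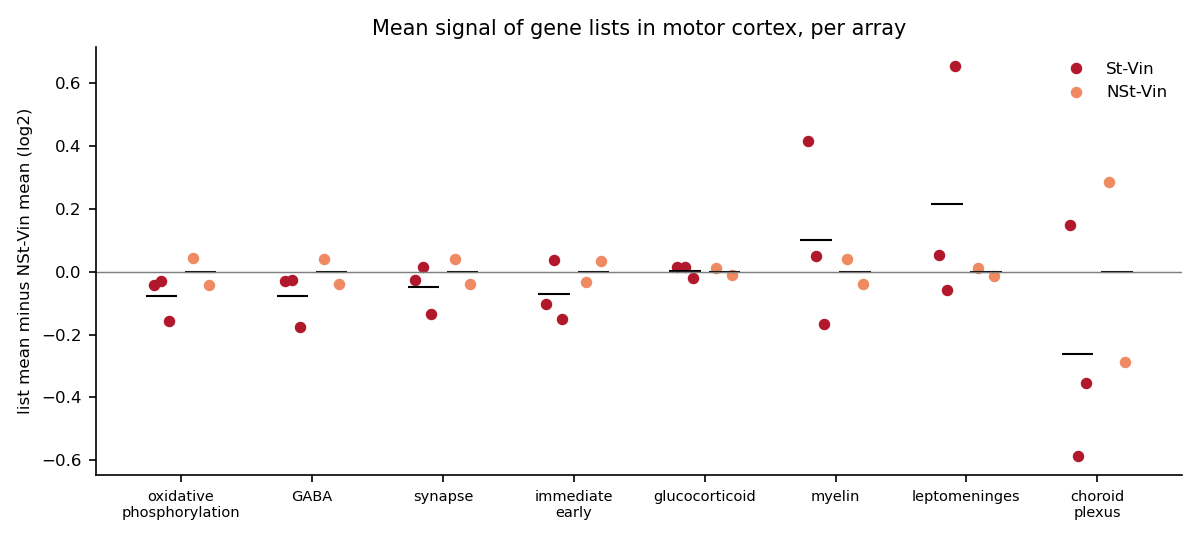
Mean log2 signal of 8 gene lists per array, minus the mean of the NSt-Vin arrays (points, with group means as lines), for St-Vin and NSt-Vin. Points of the groups overlap or touch in each of the 8 lists shown, St-Vin 3 stands above the other arrays for leptomeninges, and St-Vin 1 stands highest for myelin.

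Markers of meninges and oligodendrocytes, and the astrocyte gene Gfap, often stood out in 1 array. Leptomeningeal and fibroblast genes had list means of 6.64, 6.53 and 7.24 in St-Vin and 6.60 and 6.57 in NSt-Vin, with 18 of 21 genes positive, a median of 0.18 and 0 passing. Without St-Vin 3 that median was -0.03. Aldh1a2, a retinoic acid enzyme of the meninges, read 6.19, 6.35 and 7.44 in St-Vin and 6.20 and 6.11 in NSt-Vin, and Dcn, a collagen-binding proteoglycan, 5.60, 5.75 and 6.30 in St-Vin and 5.60 and 5.61 in NSt-Vin. Lum, another proteoglycan, differed by 0.24, and by 0.15 without St-Vin 3. Myelin and oligodendrocyte genes had means of 9.32, 8.96 and 8.74 in St-Vin and 8.95 and 8.87 in NSt-Vin, with 17 of 19 positive and a median of 0.11. The myelin median ran from -0.06 without St-Vin 1 to 0.27 without St-Vin 3. In the same St-Vin 1 array the deep-layer marker Cplx3 was at 6.28, and Ccn2 was at its highest there too. Cplx3 was at 5.77 and 5.74 in the other St-Vin arrays and at 5.64 and 5.66 in NSt-Vin. Of 15 deep-layer markers, 7 had a positive and 8 a negative difference, with a median of -0.01. Gfap, the intermediate filament of astrocytes, read 9.0, 8.09 and 8.29 in St-Vin and 7.89 and 7.76 in NSt-Vin, without overlap. The Gfap difference of 0.64 ± 0.24 was 0.36 without St-Vin 1. The astrocyte list as a whole had a median of 0.00 over 16 genes, 8 positive and 8 negative. Of these, 1 separated upward (6.25%, against 5.79% of all probe sets) and 3 downward (18.8%, against 7.43%). Astrocyte list means were 9.51, 9.44 and 9.38 in St-Vin and 9.46 and 9.37 in NSt-Vin. Of the oligodendrocyte genes, Aspa differed by 0.18, and Hapln2 by 0.22, which was 0.085 without St-Vin 1. Igfbp5, another insulin-like growth factor binding protein, differed by 0.28, which was 0.14 without St-Vin 1.

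Choroid plexus genes, a sign of tissue from within a ventricle in a punch, had means of 6.65, 5.92 and 6.15 in St-Vin and 6.79 and 6.22 in NSt-Vin. Ttr encodes transthyretin, which carries thyroid hormone, and read 10.50, 4.22 and 5.70 in St-Vin and 10.59 and 8.39 in NSt-Vin. Its difference of -2.68 ± 1.77 was the lowest of all probe sets, with an interval of -6.54 to 1.17. In the control lineage the choroid plexus mean was 6.07, 6.00 and 5.95 in St-Con and 8.38, 6.51 and 6.59 in NSt-Con, with NSt-Con 1 the highest of the 11 arrays. The part that such tissue plays in the gene differences given above was not tested.

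The control lineage gives the same comparison of stress groups in the same area, with scan day confounded as stated above. There, 174 of 27342 probe sets (0.636%) passed, 76 higher and 98 lower in St-Con, and 74 of them carry 1 symbol. The SD of the log2 differences over all probe sets was 0.089 in Vin and 0.140 in Con. The control-lineage count rests on every array of that comparison: it was 0, 13 or 19 without 1 St-Con array and 19, 4 or 0 without 1 NSt-Con array. It was also 300 without St-Vin 3, 0 with scan day as a block and 1027 with the averaged array included. The day term of that block came from NSt-Vin 1 and NSt-Vin 3 alone, the only group scanned on both days. The block therefore cannot separate scan day from stress in the control lineage.

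The 2 comparisons share no array, only the estimate of the spread, which enters the p-values of both. Of the 174 probe sets, 142 (81.6%) had the same direction in Vin, against 57.8% of all probe sets. The median difference in Vin was 0.07 for the 76 that were higher in St-Con and -0.10 for the 98 that were lower. In Con, where they were selected for their size, the medians were 0.39 and -0.37. In Vin, 37 had an unadjusted p under 0.05 (21.3%, against 3.13% of all probe sets), all in the direction seen in Con. All 3 St-Vin arrays lay beyond both NSt-Vin arrays in the same direction for 63 of the 174, and in the opposite direction for 3. Over all probe sets, 13.2% separated in either direction. The count with the same direction was 137 against NSt-Vin 3 alone, which shares its scan day with the St-Vin arrays, and 127 against NSt-Vin 1 alone. It was 125 without St-Vin 2. Cage mates link the lineages within a stress group, and probe sets are not independent of each other, so no p-value is given for these counts. In the control lineage scan day and stress cannot be told apart, and the part of cage, dissection and scan order was not tested.

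**Figure D5:**
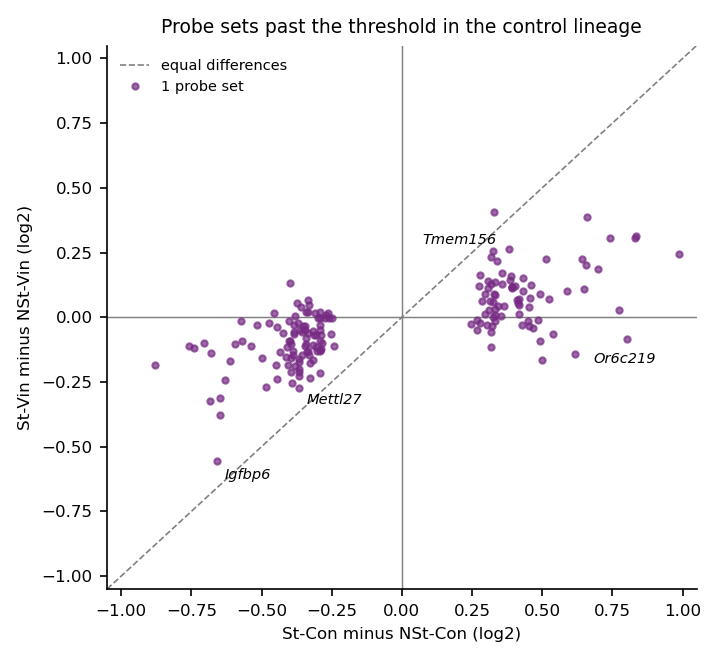
log2 difference St-Vin minus NSt-Vin (vertical axis) against St-Con minus NSt-Con (horizontal axis) for the 174 probe sets that passed in the control lineage; the dashed line marks equal differences. Most points, 142, lie in the quadrants of equal sign and closer to 0 on the vertical axis than on the horizontal.

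Whether the stress difference depends on the lineage was tested by the interaction, (St-Vin minus NSt-Vin) minus (St-Con minus NSt-Con). In limma's fit 0 of 27342 probe sets passed (0%), the smallest adjusted p was 0.490, and 1534 had an unadjusted p under 0.05 (5.61%). Of the 174 probe sets called in Con, 135 were among these, a count that their selection in Con favours. The 3 named genes with the smallest interaction p were Or6c219, Ly6i and Dmap1. Or6c219 read 5.96, 5.85 and 6.01 in St-Vin and 5.94 and 6.11 in NSt-Vin, against 6.26, 5.89 and 6.09 in St-Con and 5.23, 5.33 and 5.27 in NSt-Con. For Ly6i, of the lymphocyte antigen 6 family, the difference was -0.03 in Vin and 0.43 in Con (interaction adjusted p = 0.524). Dmap1, a partner of Dnmt1, had 0.07 in Vin and -0.33 in Con (interaction adjusted p = 0.756). For Or6c219 and Ly6i the NSt-Con arrays lay below all other arrays. For Dmap1 they lay above all others, at 6.80, 6.81 and 6.71, and the St-Con arrays lay below all others, at 6.39, 6.50 and 6.43. Among the 24 leading genes, Abca8a and Gpx8 had opposite signs without overlap in both lineages. Abca8a was at 0.30 in Vin and -0.12 in Con (interaction adjusted p = 0.757), and Gpx8 at 0.24 in Vin and -0.19 in Con (adjusted p = 0.820).

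The same animal pools supplied 3 other areas. For St-Vin against NSt-Vin, 0 probe sets passed in the basolateral amygdala (0%), 138 in hippocampal CA1 (0.505%), 26 higher and 112 lower, and 0 in CA3 (0%). The CA1 count was 752 with the averaged CA1 array of St-Con included, and in CA1 all St-Vin arrays were scanned on another day than the NSt-Vin arrays, so scan day and stress cannot be told apart there. At an unadjusted p under 0.05 in limma's fits there were 552 in amygdala, 5275 in CA1 and 3836 in CA3, against 856 in motor cortex. The test of motor cortex minus the mean of the other areas, blocked on animal pool, gave 0 of 27342 (0%), a smallest adjusted p of 0.764 and 1083 with an unadjusted p under 0.05. Its smallest p-values belonged to Igfbp6, Cyp2b15 and Or2d4. Igfbp6 differed by -0.55 in motor cortex, against 0.01 in amygdala, 0.41 in CA1 and 0.08 in CA3 (adjusted p of the area difference = 0.764). Txnip differed by 0.46 in motor cortex, against -0.12 in amygdala, 0.57 in CA1 and -0.05 in CA3. Ccn2 had 0.36 in motor cortex, against 0.13 in amygdala, 0.76 in CA1 and -0.06 in CA3. Slc32a1 had -0.31 in motor cortex, against 0.08 ± 0.49 (SE) in amygdala, -0.11 in CA1 and -0.14 in CA3. Of the 24 leading genes, 14 had the direction of motor cortex in amygdala, 12 in CA1 and 14 in CA3. The oxidative phosphorylation list had medians of -0.07 in motor cortex, 0.02 in amygdala, -0.10 in CA1 and -0.08 in CA3. The GABA list had medians of -0.05 in motor cortex, -0.035 in amygdala, -0.09 in CA1 and -0.12 in CA3.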

How the data were processed

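Values are log2 signals as deposited. Per the submitters' processing notes the authors used Partek and RMA, which corrects background, normalizes arrays and summarises probe sets; the sources used here give neither versions nor genome build. Of 27342 probe sets, 15097 carry 1 symbol, 323 several and 11922 none in the platform annotation, and 15067 were matched by gene number to RefSeq (GRCr8), which changed 0 symbols. Group means of the 11 motor cortex arrays were fitted with limma 3.58.1 (lmFit, eBayes, R 4.3.3) without further normalization. The test was two-sided, with Benjamini-Hochberg adjustment over all probe sets and a threshold of 0.05. The fit, tested on simulated data, covers the spread between pools of 4 animals. A gene on a list is read from its probe set with the highest mean signal.

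Members and lists were chosen with earlier results of these data known. The named-gene rule took the 12 smallest p-values in each direction among probe sets with 1 symbol because none passed. It added up to 6 members of each list by p-value, the 3 smallest p-values of the interaction and of the area difference, and fixed control genes. Replicate numbers are dyad groups, which pair cage mates of both lineages within a stress group and pair no stressed pool with a non-stressed one. A random dyad block (statmod 1.5.0) had a correlation of 0.081. Alternatives were other array sets, a filter at the 30th percentile, eBayes settings, quantile normalization, scan day as a block and leaving out each array.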

Additional observations from a re-analysis of the deposited data

How the results depend on the processing

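In the vinclozolin lineage 0 probe sets passed, higher or lower, and 0 passed the interaction under each of the 19 alternatives that could give a value, among them the replicate block of dyad groups (0, 0 and 0). The smallest adjusted p over these was 0.10, without St-Vin 2. Counts at an unadjusted p under 0.05 ran from 534 (filter) to 1791 (all 12 arrays, where the averaged array lowers the apparent spread), and those of the interaction from 1010 to 2584. The interaction and the control lineage could not be fitted with the 5 vinclozolin arrays alone.

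Most named genes were taken for their small p-values, which largely fixes their direction. The difference between St-Vin and NSt-Vin compares group means, so it stays the same where only control-lineage arrays are left out. It also stays the same with the vinclozolin arrays alone, with other eBayes settings and in the fit of 46 arrays. Of the 1258 values of the named genes under alternatives, 1251 had the direction given, a count that includes these fixed values. The others were near 0: Bdnf was 0.0033 with scan day as a block, and leaving out 1 array gave -0.11 to 0.005 for Bdnf, -0.013 to 0.057 for Crh, -0.027 to 0.083 for Dnmt1 and -0.03 to 0.08 for Fkbp5. Of 722 list medians under alternatives, 25 moved by more than the SD between St-Vin arrays. The 722 include medians from the same settings, where they could not move.

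The control-lineage count of 174, whose alternatives were added after seeing the data, was 1027 with all 12 arrays, 50 with the filter, 385 with eBayes trend and robust settings, 390 after quantile normalization, 0 with scan day as a block and 591 in 1 fit of 46 arrays. The day term of the scan-day block came from the 2 NSt-Vin arrays alone. Leaving out 1 array gave control-lineage counts of 0 to 300. The count of 142 with the same direction in Vin ran from 125 to 144. In CA1, 138 became 752 with all 12 arrays. The causes were not tested. With 3 and 2 arrays and a median standard error of 0.077, small differences were not detectable.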

Other observations

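None of the gene groups not described above had a gene past the threshold in the vinclozolin lineage. Glutamate receptors and transporters (30 genes) had a median of -0.02, sodium, calcium and HCN channels (30) -0.03, and axon guidance and cell adhesion genes (42) 0.00. Circadian clock genes (17) had -0.02, MHC class I and antigen processing genes (24) 0.01, and chaperones (32) -0.01. Microglial markers (18) had a median of 0.00 and endothelial and pericyte markers (21) 0.10, which became -0.02 without St-Vin 3. Markers of claustrum and lateral cortex (11) had -0.07, which was -0.07 against NSt-Vin 1 alone and 0.00 against NSt-Vin 3 alone. Medians lay between -0.045 (histone genes) and 0.02 (upper cortical layers) for neurotrophins, monoamine and acetylcholine receptors, cytoskeleton, histone genes, and markers of oligodendrocyte precursors, ependyma, blood, upper and deep cortical layers, striatum, hippocampus and thalamus. Of 1238 olfactory and vomeronasal receptor genes, 675 had a positive and 552 a negative difference, with a median of 0.01.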
